A study of Gelatoporia subvermispora and Trametes versicolor with 24 samples.

Results

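The effect of standing against shaken culture on gene expression was measured in Gelatoporia subvermispora, with no antioxidant in the medium. Libraries were chosen by their titles alone: 3 from static and 3 from agitated cultures of this fungus without antioxidants, 6 of the 24 libraries in the series. All 6 came from strain FP-105752, grown in Czapek-Dox medium with 15 mM cellobiose at 28 °C for 10 days, in 25 mL per flask. Agitated flasks were shaken at 220 rpm and static flasks stood still. The labels of agitated replicate 1 lack the entry on agitation, and its group rests on its title. Every flask, agitated ones included, received about 2 mM 4-hydroxybenzoate (HBA), an aromatic acid of the kind released from lignin, and was collected 24 h later. No culture without HBA was compared here, so each result describes cultures already exposed to it. Another 6 libraries of the fungus, 3 static and 3 agitated, came from flasks that also held antioxidants, ascorbic acid at 5 mM with α-tocopherol at 1 mM, added 30 min before the HBA. They entered the statistical model, and they provide the same contrast in libraries outside the comparison. The series also holds cultures of Trametes versicolor, not analysed here.

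G. subvermispora is a white-rot basidiomycete, a fungus that breaks down the lignin of wood and leaves much of the cellulose behind. White-rot fungi do so with secreted oxidative enzymes, chiefly manganese peroxidases and laccases, together with enzymes that supply hydrogen peroxide. Shaking changes the form of the mycelium, from a surface mat to suspended pellets, and the supply of oxygen to the hyphae. Culture form is known to affect how much of these enzymes white-rot fungi secrete. The deposited tables list genes by running number and do not pair the numbers with names or products. No gene can therefore be assigned to these enzymes here, and groups of genes are described by level and response.

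Reads assigned to genes ranged from 7875324 in static replicate 1 to 25707667 in agitated replicate 1. Of the 12313 listed genes, 1193 had no read in any of the 6 libraries, and 10529 passed the filter on low counts and were tested. Levels are given in CPM (read counts scaled to a common library size, with TMM factors), which compares 1 gene between libraries but not genes of different length. Agitated libraries correlated with one another across genes at 0.993 to 0.996. Static replicate 1 stood slightly apart, at 0.985 and 0.987 with static replicates 3 and 2, which correlated with each other at 0.994. No agitated library correlated with a static one above 0.933. Nothing in the labels says that replicates were separate flasks. The p-values thus reflect only the variation among these samples, which may be technical. In RNA pooled from a whole mycelium, a change in the share of hyphae in some state and a change of RNA per hypha cannot be told apart.

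Expression differed widely between static and agitated mycelium. In edgeR's quasi-likelihood test, 5083 of the 10529 tested genes, 48.3%, passed a Benjamini-Hochberg adjusted p of 0.05. Of these, 2499 genes (23.7% of those tested) were higher in static culture and 2584 (24.5%) were lower. The median log2 fold change was 0.79 among the genes called higher and -0.67 among those called lower. Changes of under 1.5-fold made up 878 of the rises (35.1%) and 1080 of the falls (41.8%). A stricter test asked which changes exceeded 2-fold. It called 840 genes (7.98%), 489 higher (4.64% of those tested) and 351 lower (3.33%). These are called the strongly raised and strongly lowered genes below. The share of risers depended on scaling. With library totals in place of TMM, the median gene shifted by 0.182 on the log2 scale. Risers then made up 67.7% of the called genes instead of 49.2%, and 69.0% of the genes past 2-fold (597 higher, 268 lower) instead of 58.2%. Changes are reported relative to the TMM scale.

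**Figure D1:**
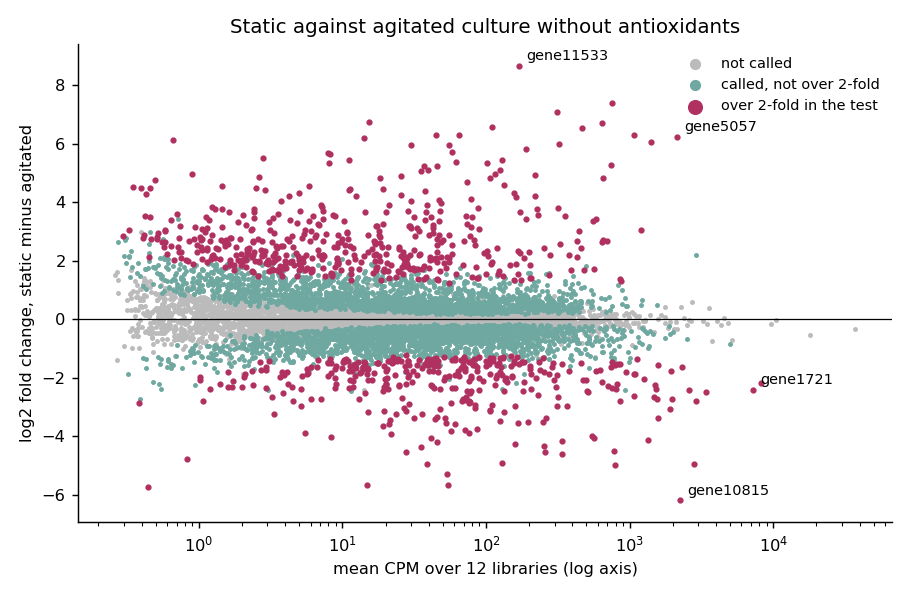
Log2 fold change of static minus agitated culture without antioxidants for each of the 10529 tested genes (vertical axis) against its mean CPM over the 12 libraries (horizontal log axis). Grey points were not called, green points were called at an adjusted p of 0.05, and red points are the 840 genes past the test for more than 2-fold. Rises reach a log2 fold change of 8.67 and falls -6.19.

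A gene that was not called is not thereby shown to be stable, so the 95% confidence interval of each fold change was examined. For 3431 uncalled genes, 32.6% of those tested, the interval lay wholly within 1.5-fold in either direction. These genes had a median level of 44.9 CPM. For the other 2015 uncalled genes, 19.1%, the interval reached past 1.5-fold and the data do not bound the change that tightly. They were weakly expressed, at a median of 5.11 CPM, and 749 of them had an interval that reached past 2-fold. Conversely, 785 called genes had intervals inside 1.5-fold, with a median of 75.0 CPM. Their changes were small and passed the test. In all, 4216 genes (40%) had a change bounded within 1.5-fold.

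Abundant transcripts were lowered in static culture more often than they were raised. Among the 95 genes with a mean above 1000 CPM over the 12 libraries, 43 were called lower and 8 higher, and 23 fell and 4 rose by more than 2-fold in the stricter test. The median log2 fold change of this class was -0.33, against -0.003 over all tested genes. Among the 2116 genes at 100 to 1000 CPM, 29.7% were called lower and 20.1% higher. Genes between 10 and 100 CPM, the largest class, were called lower in 26.7% and higher in 21.9% of cases. Weak transcripts showed the opposite balance. Of the 2596 genes at 1 to 10 CPM, 782 were called higher and 482 lower, and 202 rose against 54 that fell by more than 2-fold. Under 1 CPM, 140 of 502 genes were called higher and 34 lower. A weak gene passes the filter through the group in which it is high, so these last counts cannot stand for all weak genes.

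The balance in the middle classes depended on scaling. With library totals alone, genes at 10 to 100 CPM were called higher in 29.2% and lower in 15.3% of cases, and those at 100 to 1000 CPM in 29.8% and 18.1%, which turns both directions. The most abundant class kept its direction, with 34 of 95 genes lower, 13 higher and a median log2 fold change of -0.14. The weak classes kept theirs as well, with 931 genes higher and 319 lower at 1 to 10 CPM. Precision differed between classes too. The median SE of a log2 fold change was 0.42 under 1 CPM, 0.22 at 1 to 10 CPM, 0.12 at 10 to 100 CPM, 0.11 at 100 to 1000 CPM and 0.18 above 1000 CPM.

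**Figure D2:**
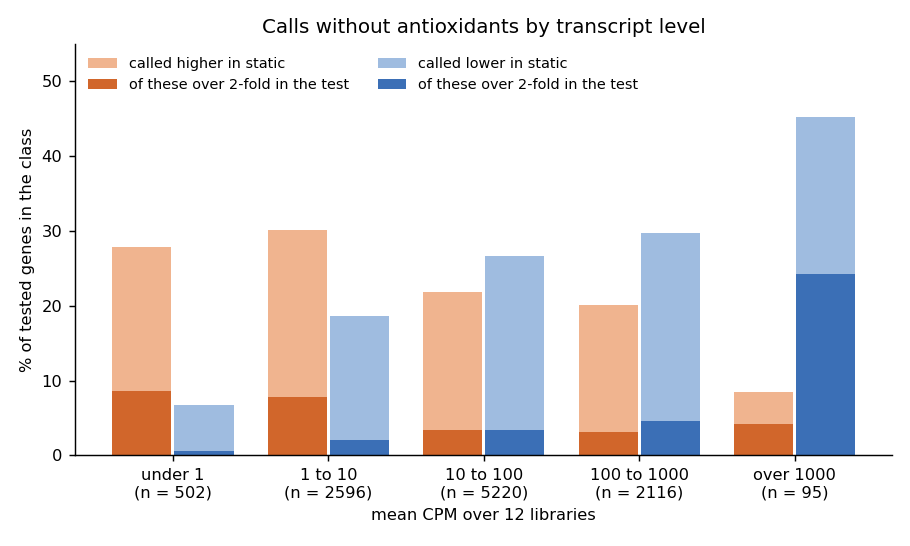
Share of tested genes (vertical axis, %) called higher (orange) or lower (blue) in static culture without antioxidants, by mean CPM over the 12 libraries. Dark parts of bars are genes past the test for more than 2-fold. Above 1000 CPM 45.3% were lower and 8.42% higher, and under 1 CPM 6.77% were lower and 27.9% higher.

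The 100 most abundant genes held a larger share of reads in agitated than in static mycelium, while the shares of the top 20 overlapped between the groups. The 20 most abundant genes of each library held 13.3, 14.7 and 18.7% of gene reads in agitated and 13.4, 13 and 12.9% in static libraries, and the groups overlapped (exact permutation p = 0.2). The 100 most abundant genes of each library, taken in that library alone, held 27.6, 28.8 and 32.1% of gene reads in agitated replicates 1, 2 and 3. They held 25.1, 24.3 and 25.2% in the static replicates. The means were 29.5% ± 2.33 (SD, n = 3) and 24.9% ± 0.493, and the groups did not overlap. An exact two-sided permutation test gave p = 0.1, the smallest that 3 against 3 libraries allow. Counting down from the most abundant gene, 50% of reads were reached with 528, 495 and 424 genes in agitated and with 619, 652 and 605 genes in static libraries (exact permutation p = 0.1). More than 1 CPM was reached by 9839, 9761 and 9739 genes in agitated and by 10122, 10078 and 10056 genes in static libraries. The shallowest library, static replicate 1, had the most genes above this level. These shares and counts use reads divided by library totals and do not depend on TMM.

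The reads lost by static mycelium came from few genes, and the reads gained were spread over many. Taking the difference in mean share of gene reads, 3722 tested genes lost and 6807 gained, for a total of 19.2 percentage points each way. The 50 genes with the greatest losses made up 50% of the total lost, and 46 of them were called in either direction. To reach 50% of the total gained took 228 genes, of which 180 were called in either direction. Over all tested genes 48.3% were called. Both sets were ranked by their difference in these same libraries, so their calls are a description. The single greatest loss was 0.96 percentage points and the single greatest gain 0.51 points.

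The 2 transcripts singled out in each direction are the one with the largest fold change and the one with the largest change in mean CPM. They were picked among called genes whose average log2 CPM was 3 or more and whose static and agitated libraries did not overlap, a separation that 62.2% of all tested genes showed. What these 4 genes encode is not known from the files.

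gene11533 had the largest fold rise. It stood at 1.23, 1.25 and 0.799 CPM in agitated replicates 1, 2 and 3, which rests on 31, 26 and 15 reads. In static replicates 1, 2 and 3 it stood at 189, 438 and 724 CPM. All static libraries were thus more than 100 CPM above all agitated ones, and the static libraries differed from one another severalfold. The log2 fold change was 8.67 (SE 0.59, 95% interval 7.37 to 9.96, edgeR adjusted p = 1.1e-06). Counting error is not small at the agitated level, so the size of the fold is less certain than its direction. With antioxidants in the medium gene11533 stood at 0.872, 0.840 and 1.84 CPM in agitated and at 163, 223 and 308 CPM in static libraries.

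gene5057 gained the most CPM. Its level was 73.9, 67.5 and 52.0 CPM in agitated and 2083, 4740 and 7750 CPM in static replicates 1, 2 and 3. By mean level it ranked 3236 among the tested genes in agitated culture and 5 in static culture. The log2 fold change was 6.23 (SE 0.54, 95% interval 5.04 to 7.43, edgeR adjusted p = 5.7e-06). Static replicate 1 was again the lowest of its group and replicate 3 the highest, as for gene11533. In flasks with antioxidants the levels were 33.9, 14.7 and 30.3 CPM when agitated and 2704, 3104 and 4934 CPM when static.

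gene10815 showed the largest fold fall. In agitated libraries it was among the most abundant transcripts, at 2194, 2676 and 2354 CPM and rank 36. In static libraries it stood at 26.3, 26.3 and 45.5 CPM and rank 4865. The log2 fold change was -6.19 (SE 0.49, 95% interval -7.28 to -5.11, edgeR adjusted p = 3.2e-06). Agitated libraries with antioxidants stood at 7764, 9264 and 2420 CPM in replicates 1, 2 and 3, the last within the range of the cultures without them. Static libraries with antioxidants stood at 35.3, 33.1 and 45.1 CPM.

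gene1721 lost the most CPM. It was the third most abundant tested gene in agitated culture, at 13043, 12444 and 13148 CPM, and the replicates lay close together. It was still abundant in static culture, ranking 23, at 1913, 2556 and 2784 CPM. The log2 fold change was -2.41 (SE 0.20, 95% interval -2.85 to -1.97, edgeR adjusted p = 2.8e-06). Of the 4 named genes it had the largest change in CPM and the smallest fold change. With antioxidants it went from 10532, 9198 and 8970 CPM to 3398, 3453 and 5141 CPM.

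**Figure D3:**
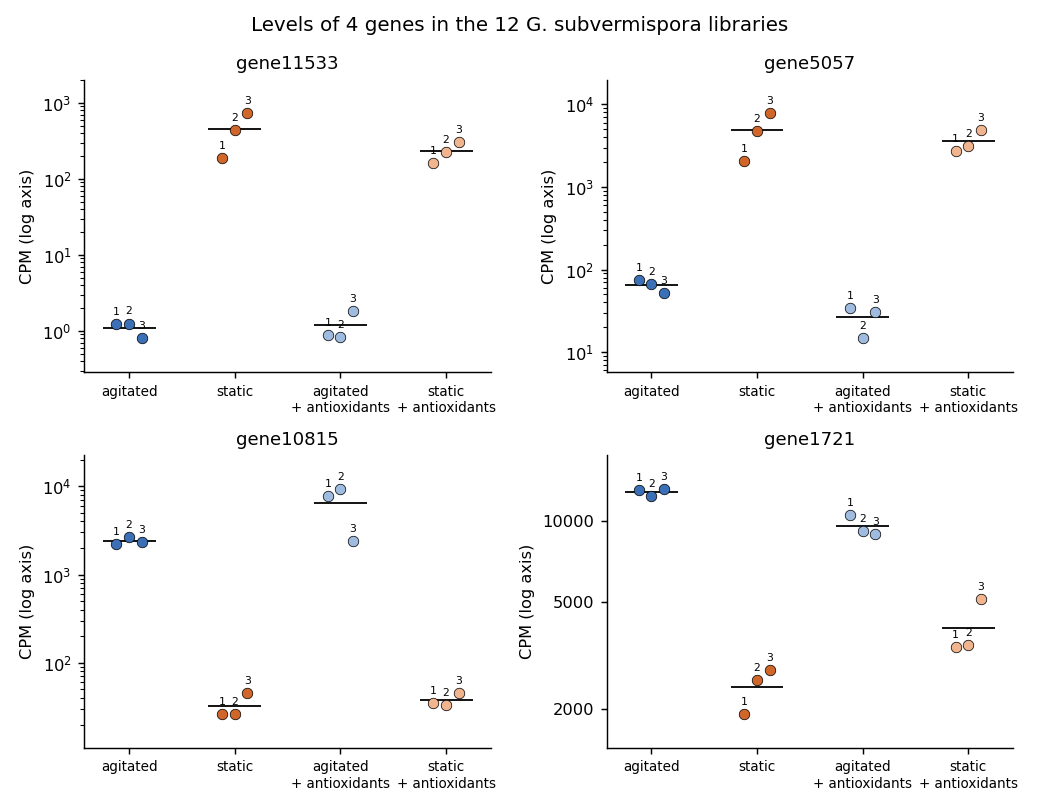
CPM (vertical log axis, different range in each panel) of 4 genes in the 12 libraries of G. subvermispora. Points are libraries with their replicate number and lines are group means (n = 3). In each panel the 3 static libraries without antioxidants lie wholly above (gene11533, gene5057) or below (gene10815, gene1721) the 3 agitated ones.

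As a group, the 489 strongly raised genes started from a low level. Their median was 2.85, 2.73 and 2.45 CPM in agitated replicates and 14.5, 19.1 and 19.7 CPM in static ones, while the median over all tested genes was 27.5 to 28.1 CPM in the same 6 libraries. Together they took 0.827, 0.779 and 0.691% of gene reads in agitated and 5.01, 6.82 and 8.24% in static libraries. The typical strongly raised gene was thus a weak transcript in shaken mycelium, and its level in static mycelium was still below the median of all genes. The 351 strongly lowered genes were abundant to begin with, at medians of 82.8, 81.8 and 86.5 CPM in agitated libraries, and fell to 17.2, 17 and 18.9 CPM. Their share of gene reads went from 14.7, 13.9 and 13.6% to 3.01, 3.14 and 3.52%. These genes were chosen on this contrast, so the separation of the groups is a description. Their low or high starting levels are a description too, because the agitated level is part of that contrast.

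**Figure D4:**
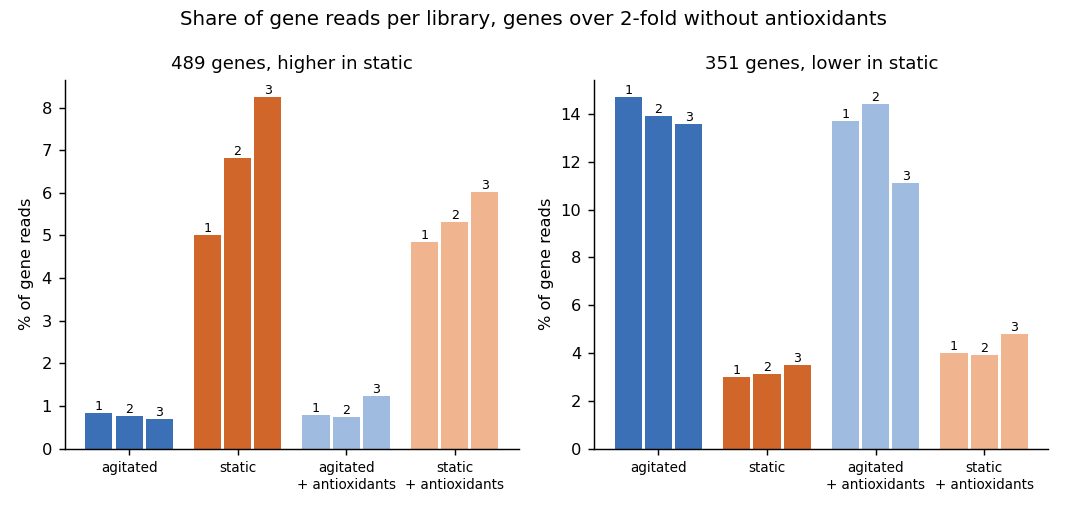
Summed share of gene reads (vertical axis, %) in each of the 12 libraries for the 489 genes raised (left) and the 351 lowered (right) by more than 2-fold in static culture without antioxidants. Bars are libraries, numbered by replicate, and the scales of the panels differ. The raised genes hold 5.01 to 8.24% of reads in static libraries without antioxidants and 4.85 to 6.02% in those with them.

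The largest estimated changes were mainly rises. Of the 10529 tested genes, 67 were called and estimated higher by 16-fold or more, and 23 lower. These were 2.68% of the 2499 genes called higher and 0.89% of the 2584 called lower. The 16-fold cut was set on the estimate and was not a test. A weak gene passes the filter through the group in which it is high, so this balance cannot stand for all weak genes. The 67 genes had a median of 2.65, 2.06 and 1.76 CPM in agitated libraries and 60.0, 89.5 and 90.3 CPM in static ones. The 23 genes went from 264, 273 and 256 CPM to 5.67, 9.14 and 15.0 CPM. A complete switch was rare. Only 3 genes had at most 3 reads in each agitated library and at least 1 CPM in each static library, with a median static level of 1.61 CPM. The reverse was found for 2 genes, at a median of 1.96 CPM in agitated libraries. All 5 of these genes were called, against 48.3% of all tested genes. They were chosen for their difference in these same libraries, so the calls are no further evidence. With no minimum level, 14 of the 12313 listed genes had 0 reads in every agitated library and some reads in every static one. The reverse held for 2 genes.

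Genes with extreme responses, in both directions, varied more among static libraries than the typical gene. The median SD of log2 CPM among the 3 static libraries was 0.59 for the 67 genes, 0.44 for the 23 genes, 0.31 for the 489 strongly raised genes, 0.22 for the 351 strongly lowered genes and 0.15 over all tested genes. Among agitated libraries the corresponding values were 0.36, 0.15, 0.24, 0.11 and 0.098. The sets were not matched for level, where the median over all tested genes was 27.5 to 28.1 CPM. In static libraries the 23 genes had medians of 5.67 to 15.0 CPM and the 67 genes 60.0 to 90.3 CPM. In agitated libraries the 67 genes had medians of 1.76 to 2.65 CPM. The part that level played in the spread was not tested. In static culture 48 of the 67 genes were lowest in replicate 1, or 71.6%, against 39.4% of all tested genes. In 39 of them (58.2%) replicate 3 was highest, against 30.6% of all tested genes. The 23 lowered genes were also mostly highest in replicate 3, for 17 (73.9%). Their lowest library was replicate 1 for 12 (52.2%) and replicate 2 for 10. The 67 genes together held 1.48% of gene reads in static replicate 1, 2.76% in replicate 2 and 4.05% in replicate 3. Static replicate 1 was also the shallowest library, and the part that depth played in this was not tested. Without it, all 67 genes and all 23 strongly falling genes were still called in the same direction, and 70 and 20 genes passed 16-fold.

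Of the static libraries with antioxidants, which are separate libraries, replicate 1 was again lowest for 48 of the 67 genes (37.2% of all tested genes) and replicate 3 highest for 44 (42.0%). Their summed shares were 1.62, 1.90 and 2.47% in replicates 1, 2 and 3. There replicate 1 was the deepest library, with 26653884 gene reads, and replicate 3 had 17585100. The labels do not say whether a replicate number links static flasks across antioxidant states. In agitated libraries without antioxidants the shares were 0.0594, 0.0475 and 0.0351%, and 43 of the 67 genes were lowest in replicate 3.

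Some strongly responding genes had consecutive numbers. Of the 446 strongly raised genes whose next number was also tested, 69 (15.5%) were followed by another strongly raised gene, where such genes are 4.64% of those tested. For the strongly lowered genes it was 37 of 327, or 11.3% against 3.33%. Only 4 strongly raised genes were followed by a strongly lowered one, and 4 strongly lowered genes by a strongly raised one. Whether the numbers follow the order of genes on chromosomes is not stated in the files, and reads shared by near-identical neighbours cannot be assigned with certainty.

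The static response was then compared with that in flasks with antioxidants, where 5275 genes were called (50.1% of those tested, 23.5% higher and 26.6% lower). Of the 489 strongly raised genes, 442 (90.4%) were also called higher with antioxidants and 2 were called lower. Of the 351 strongly lowered genes, 332 (94.6%) were called lower and 3 higher. Among genes called higher by under 1.5-fold without antioxidants, 46.6% were called higher with them. It was 62.8% at 1.5 to 2-fold, 77.4% at 2 to 4-fold, 85.7% at 4 to 16-fold and 98.5%, or 66 of 67 genes, above 16-fold. For falls the shares were 61.5, 65.8, 80.5 and 94.8%, and above 16-fold 91.3%, or 21 of 23 genes.

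More than 2-fold in both antioxidant states, by the stricter test, were 266 raised genes, which are 54.4% of the 489 found without antioxidants, and 190 lowered genes, 54.1% of the 351. With antioxidants the stricter test called 3.83% of genes higher and 3.17% lower. The median log2 fold change of the 489 genes was 2.46 without and 1.82 with antioxidants, and that of the 351 genes -1.95 and -1.53. A smaller value in the second state is usual for genes selected on the first.

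Whether the static effect itself differed between antioxidant states was tested as an interaction. It did for 953 genes (9.05% of those tested, edgeR adjusted p under 0.05), of which 611 were called without antioxidants. The strongly raised genes held 67 of them and the strongly lowered genes 81. In 61 of the 67 and 75 of the 81 the effect was larger without antioxidants, the state in which the genes were selected. Opposite calls in the 2 states were made for 97 of the 953 genes. Among the named genes the effect on gene1721 differed, with a fall that was stronger by 1.15 on the log2 scale without antioxidants (difference -1.15, SE 0.27, edgeR adjusted p = 0.024). Its fall with antioxidants was -1.26 (SE 0.19, edgeR adjusted p = 0.00025). The differences for gene11533 (1.07, SE 0.83), gene5057 (-0.86, SE 0.62) and gene10815 (1.23, SE 0.56) had edgeR adjusted p-values of 0.45, 0.41 and 0.2.

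The number of such genes was sensitive to single libraries. It was 1496 without agitated antioxidant replicate 3, the library in which gene10815 stood below its group. Without that replicate the difference for gene10815 was 1.63 (edgeR adjusted p = 0.0042). The count was 504, 522 and 459 without agitated replicates 1, 2 and 3 in turn. Without static replicates 1, 2 and 3 it was 1184, 482 and 589. Omitting agitated antioxidant replicates 1 and 2 gave 661 and 862. Omitting static antioxidant replicates 1, 2 and 3 gave 541, 640 and 617.

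**Figure D5:**
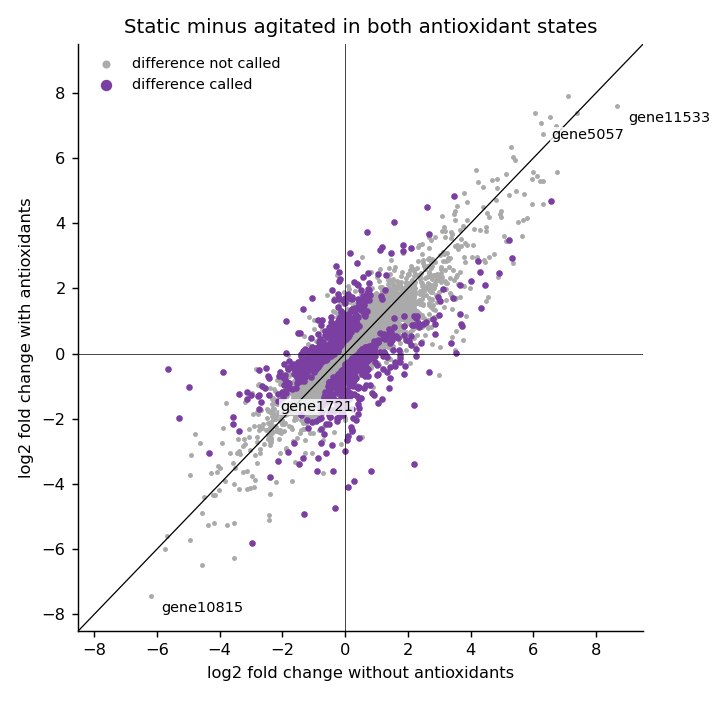
Log2 fold change of static minus agitated culture without antioxidants (horizontal axis) and with antioxidants (vertical axis) for the 10529 tested genes. Purple points are the 953 genes for which the difference between the 2 effects passed an adjusted p of 0.05, and the diagonal marks equal effects. gene11533, gene5057 and gene10815 lie far from 0 on both axes.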

How the data were processed

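The authors deposited, for each library, a table of unnormalised counts of reads assigned to genes. HTSeq, FastQC, Bowtie and Bowtie2 are named in the submitters' processing notes, without roles. The build, annotation and strand setting were not given in the sources used here. HTSeq's summary lines were left out. In the 6 libraries, 33.7 to 46.9% of reads were left uncounted for low mapping quality, which leaves counts of near-identical gene copies uncertain, as are those of overlapping or antisense genes.

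Counts were analysed with edgeR 4.0.16 in R 4.3.3: filterByExpr, TMM, a robust quasi-likelihood fit of 4 group means over 12 libraries (8 residual degrees of freedom) and Benjamini-Hochberg adjustment. glmTreat tested changes over 2-fold on the same fit. SEs came from the fold change and F statistic, and 95% intervals from the t distribution. The comparison, groups and named-gene rule (called, average log2 CPM of 3 or more, no overlap, 2 genes per direction) were chosen with earlier results of these data known. Gene lists by product could not be filled, because the tables give no products. Library measures were tested by exact permutation.

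Alternatives used DESeq2 1.42.0, limma 3.58.1, other scalings and filters, thinning, a replicate block and omission of each library. Replicate counts differed beyond sampling noise (chi-square per degree of freedom 22.26 to 74.47). In simulated counts for this comparison (10474 genes), 86 of 100 genes changed 2-fold and 99 of 100 changed 4-fold were found, with 7 false calls. Only these genes were changed, all at 1 CPM or more. In the data 48.3% of genes were called, so the simulation cannot check scaling or false calls under so wide a change.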

Additional observations from a re-analysis of the deposited data

Results flagged for a closer look

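A test of the difference between the static effects without and with antioxidants flagged 953 genes as a count and gene1721 among the named genes. The log2 fold change of gene1721 was lower by 1.15 without antioxidants than with them (difference -1.15, SE 0.27, edgeR adjusted p = 0.024). In both antioxidant states every static library lay below every agitated library for this gene.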

How the results depend on the processing

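The 5083 calls ranged from 3636 to 5549 over 12 other settings and from 4253 to 5891 when any 1 of the 12 libraries was left out. The 840 genes past 2-fold ranged from 628 to 941 and from 695 to 971. Without any 1 of the 6 compared libraries, all 840 were still called in the same direction by the test against 0. By the stricter test, 688 to 777 of them still passed 2-fold. The 4 named genes kept direction and call throughout. Larger shifts were few, apart from the number of genes whose static effect differed by antioxidant state. That count moved by more than 1.5-fold in 8 of 12 omissions of 1 library and in 2 of 11 other settings. Library totals alone gave 1564 lower genes. An adjusted p of 0.01 left 2228 genes called the same way in both antioxidant states. The number of genes whose static effect differed by antioxidant state was 1516 with DESeq2, 256 at an adjusted p of 0.01, and 459 to 1496 with 1 library left out. The call of gene1721 in that test was lost without agitated replicate 3 or static replicate 2 (edgeR adjusted p = 0.059 and 0.051) and at the stricter threshold. The static minus agitated difference in read share was -2.44 percentage points for the 20 most abundant genes, against -4.65 for the 100 most abundant, and 270 more genes were needed for 90% of reads, against 143 for 50%. A stricter threshold can only remove calls, and the shares and gene numbers at other cuts are different measures. The cause of the other shifts was not tested. Deviations from the group mean correlated across genes at -0.074, -0.011 and 0.06 between same-number static and agitated libraries. Between libraries of different number the correlations ran from -0.113 to 0.094. The labels do not state pairing, and these values cannot decide whether numbers pair libraries. With the replicate block 4915 genes were called, 828 past 2-fold. The fit of only 2 groups cannot test the interaction. Depth limits statements on genes under about 1 CPM.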
